A study of Rattus norvegicus with 6 samples.

Results

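Endothelial cells line the vessels of bone and the sinusoids of its marrow, and 10 genes known from them were followed here in rat subchondral bone, the bone beneath the cartilage of the knee. The genes were chosen by name: Pecam1, Cdh5, Kdr, Emcn, Vwf, Tek, Tie1, Egfl7, Flt4 and Stab2. Of these, 9 had a row in the deposited table, among 22050 annotated genes with values. Pecam1 had none and is not analysed here. Bulk RNA of 6 rat libraries was read, with the titles S10, S12 and S13 and S20, S21 and S23. The stated aim was a comparison of cold with normal temperature, but the labels used here tie no library to a temperature. Nor do they name a strain, an age or whether the libraries came from separate animals. The libraries were therefore not grouped, and the account is of levels and of how they differ from library to library, without a test of cold.

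Vessels of bone carry oxygen and signals to bone-forming cells, and the wide, leaky sinusoids of marrow are the way by which blood cells leave it. Endothelial cells receive vascular endothelial growth factors (VEGF) through the receptor kinases encoded by Kdr and Flt4, and angiopoietins through the kinase encoded by Tek, with Tie1 as its partner. Neighbouring cells are held together by VE-cadherin, the product of Cdh5. Emcn encodes endomucin, a surface mucin used with the product of Pecam1 to mark the capillaries that accompany bone formation. Stab2 encodes a scavenger receptor for hyaluronan found on sinusoids. Vwf encodes von Willebrand factor, a clotting protein that megakaryocytes make as well. Egfl7 encodes a small protein that endothelial cells secrete.

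Egfl7 is also the host of a microRNA known from endothelium. In the RefSeq table of the assembly GRCr8 both mature arms of miR-126a lie within the span of Egfl7, on the plus strand, at chr3:29813182-29813202 (5p) and chr3:29813219-29813240 (3p). They are shown because a reader who follows Egfl7 will meet them. The capitals mark the seed, bases 2 to 8. The values used here do not measure mature microRNAs.
rno-miR-126a-5p: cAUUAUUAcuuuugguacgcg
rno-miR-126a-3p: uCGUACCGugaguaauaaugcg

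Promoter entries (RefSeq, GRCr8) were found for 6 of the 10 genes. Those of Kdr, Flt4 and Emcn are printed up to the first annotated base of the gene. In the deposited values Kdr and Flt4, 2 receptors, differed alike between libraries, and Emcn did not share that order. This order is not corrected for transcript length, described below, and was not tested against the promoter letters. Kdr lies at chr14:32571813-32572030, Flt4 at chr10:34414584-34414833 and Emcn at chr2:228564289-228564444, all on the plus strand. Capitals mark AGGAAG and CCGGAA on either strand, which are forms of the site of ETS factors, a family that includes regulators of endothelial genes. Both forms hold the ETS core GGAA, which 93.2% of all entries hold. No capital run below is shared by Kdr and Flt4, whereas AGGAAG is marked in Flt4 and in Emcn.
Kdr: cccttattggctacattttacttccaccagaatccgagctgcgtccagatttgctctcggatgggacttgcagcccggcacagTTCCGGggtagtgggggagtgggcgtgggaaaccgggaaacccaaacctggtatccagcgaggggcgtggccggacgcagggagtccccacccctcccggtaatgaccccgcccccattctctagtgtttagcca
Flt4: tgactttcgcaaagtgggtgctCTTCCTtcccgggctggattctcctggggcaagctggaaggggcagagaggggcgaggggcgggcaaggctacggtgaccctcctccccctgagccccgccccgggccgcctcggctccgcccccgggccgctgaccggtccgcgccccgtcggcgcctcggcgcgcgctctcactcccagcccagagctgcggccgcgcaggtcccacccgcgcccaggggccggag
Emcn: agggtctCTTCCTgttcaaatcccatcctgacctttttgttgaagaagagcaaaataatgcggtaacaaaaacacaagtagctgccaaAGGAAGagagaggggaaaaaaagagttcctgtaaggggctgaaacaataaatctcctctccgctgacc
In the 250 bases before a start, AGGAAG stood in at least 1 entry of 5 of these 6 genes (all but Kdr) and in 29.5% of all 33469 promoter entries. CCGGAA stood in that of Kdr alone and in 12.6% of all entries. The GATA form AGATAA stood in none of the 6 and in 10.3% of all entries. A match describes the letters and is no evidence of binding. Over the 250 bases the entries differed in base composition, with 76% G and C in Flt4, 61.6% in Kdr and 44.4% in Emcn against a median of 51.2%.

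Total counts ran from 39990624 in S10 to 59200981 in S21. All 9 genes reached a median of 1 FPKM (a level per kilobase of transcript and per sequencing depth, by which different genes can be compared), as 11625 annotated genes did, which are called expressed here. The median level of the 9 was 2.28 on the log2(FPKM + 1) scale, below the 3.33 of the expressed genes. In bulk RNA a lower level from fewer endothelial cells and one from less RNA per cell cannot be told apart.

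The 3 genes with the highest medians were Egfl7, Tie1 and Emcn. Egfl7 (ENSRNOG00000019388) had the highest median, 12.8 FPKM, with its lowest value in S12 (9.42 FPKM) and its highest in S10 (15.7 FPKM). Tie1 (ENSRNOG00000020173) followed with a median of 10.4 FPKM, from 5.49 FPKM in S10 to 13.6 FPKM in S20. Emcn (ENSRNOG00000022910) had a median of 9.79 FPKM and stayed between 7.88 FPKM in S23 and 10.9 FPKM in S10. That span was the narrowest of the 9 in the deposited values but not under TMM scaling, described below, where Tek had the narrowest. These 3 genes are not ordered beyond their spread: Egfl7 exceeded Tie1 in 4 of 6 libraries, and Tie1 exceeded Emcn in 4 of 6. In S10 both Egfl7 and Emcn stood above Tie1, and in S12 and S20 Tie1 stood above both.

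Below a gap came Vwf (ENSRNOG00000019689), with a median of 5.54 FPKM, a lowest value of 4.14 FPKM in S10 and a highest of 7.48 FPKM in S20. None of its values reached those of Emcn, and this was the one step in the order without overlap. Tek (ENSRNOG00000008587) had a median of 3.86 FPKM and ranged from 3.27 FPKM in S10 to 5.56 FPKM in S12. Its partner Tie1 was thus more abundant in each library, with Tek at 0.359 times Tie1 in S21 and 0.595 times in S10.

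The 2 VEGF receptors and VE-cadherin had lower medians, although Tek exceeded Kdr in only 4 of 6 libraries and lay below it in S12 and S20. Kdr (ENSRNOG00000046829) stood at 6.52 FPKM in S12 and at 6.44 FPKM in S20, whereas the other 4 libraries lay between 2.39 FPKM in S10 and 3.24 FPKM in S23. Cdh5 (ENSRNOG00000013324) had 5.54 FPKM in S12, 4.15 FPKM in S20 and 2.05 FPKM in S10, with the remaining 3 libraries between 2.57 and 2.81 FPKM. Flt4 (ENSRNOG00000002511) had 4.46 FPKM in S12, 3.47 FPKM in S20 and 1.35 FPKM in S10, with the remaining 3 between 1.99 and 2.12 FPKM. Kdr exceeded Cdh5 and Cdh5 exceeded Flt4 in 6 of 6 libraries, although their ranges over the libraries overlapped. Stab2 (ENSRNOG00000038948), the sinusoidal scavenger receptor, was the lowest member at a median of 1.08 FPKM. It had 2.76 FPKM in S12, 2.30 FPKM in S20 and 0.598 FPKM in S10, and lay below Flt4 in 6 of 6 libraries.

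**Figure D1:**
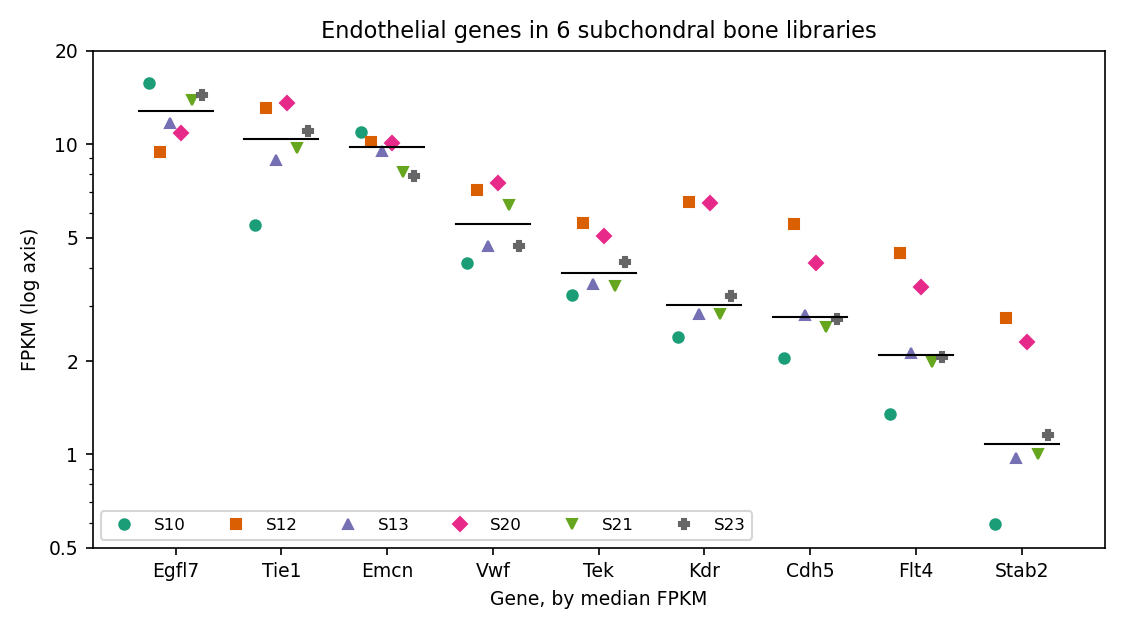
FPKM on a log axis of 9 endothelial genes (horizontal axis, by median) in 6 libraries (one symbol each, with the median as a black line). In these deposited values S10 is the lowest library for 7 genes, while Egfl7 and Emcn are highest there.

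Counting error was small beside these differences. The smallest was the 199 counts of Stab2 in S10 (95% exact Poisson interval 172 to 229, counting error only), against 1001 counts in S12 (940 to 1065). Cdh5 had 360 counts in S10 (324 to 399) and 1063 in S12 (1000 to 1129). Flt4 had 336 counts in S10 (301 to 374) and 1214 in S12 (1147 to 1284). For these 3 genes the intervals of the lowest and the highest library did not overlap, with total counts of 39990624 in S10 and 44194710 in S12. Emcn, by contrast, had between 567 counts (S23) and 777 counts (S13).

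The difference between the highest and the lowest library was at least 1 on the log2(FPKM + 1) scale in 5 of the 9 genes: Stab2 (1.23), Flt4 (1.22), Tie1 (1.17), Kdr (1.15) and Cdh5 (1.10). Of all expressed genes 36.6% passed that mark, so the count is read against that share. The range was 0.72 for Vwf, 0.68 for Egfl7, 0.62 for Tek and 0.43 for Emcn, and under TMM scaling 0.52, 1.24, 0.33 and 0.89. The median range was 1.10 over the 9 genes and 0.83 over all expressed genes. In fold terms, Stab2 was 4.62 times, Flt4 3.30 times and Kdr 2.73 times as high in the highest library as in the lowest, and Emcn 1.39 times.

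The libraries with the highest and lowest values were shared by 7 genes and differed for Egfl7 and Emcn. Cdh5, Kdr, Flt4, Stab2, Tek, Tie1 and Vwf all had their 2 highest deposited values in S12 and S20 and their lowest in S10, although under TMM scaling, described below, S10 was lowest for 3 of them. Egfl7 and Emcn were highest in S10, but with libraries set to a common sum Egfl7 was highest in S23 and Emcn in S20. Egfl7 had its 2 lowest values in S12 and S20, whereas Emcn stood there at 10.2 and 10.1 FPKM, next below its value in S10. Summed, the first 7 made 19.3 FPKM in S10, 45.0 FPKM in S12, 42.5 FPKM in S20, and between 25.9 and 29.1 FPKM elsewhere. Egfl7 and Emcn together made 26.7 FPKM in S10 and 19.6 FPKM in S12, a difference that lay mainly in Egfl7 (15.7 and 9.42 FPKM) and little in Emcn (10.9 and 10.2 FPKM). Egfl7 thus made up 34.2% of the FPKM of all 9 genes in S10 and 14.6% in S12.

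Transcript length separates the same 7 genes from Egfl7 and Emcn. The length implied by counts and FPKM was 1591 bases for Egfl7 and 1520 for Emcn, and 4252 (Tie1) to 9646 (Vwf) for the other 7. Across all expressed genes the libraries differed with length. In the tenth of genes with the longest transcripts the median deviation of a gene from its own median over libraries was -0.63 on the log2 scale in S10, 0.38 in S12 and 0.42 in S20. In the tenth with the shortest it was 0.09 in S10, -0.12 in S12 and -0.25 in S20. In S13, S21 and S23 these medians stayed within 0.11 of 0.

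The order of libraries seen in the 7 long genes was common among genes of their length. S10 was the lowest library for 7 of the 9 members and for 60.1% of all expressed genes. Among the 2165 expressed genes with an implied length over 4000 bases, a limit chosen after the values were seen, S10 was lowest for 92.9%. S12 and S20 were the 2 highest libraries for 7 of 9 members, for 35.9% of expressed genes and for 72.0% of the long ones. A range of at least 1 was found for 5 of the 7 long members and for 57.4% of the long genes.

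**Figure D2:**
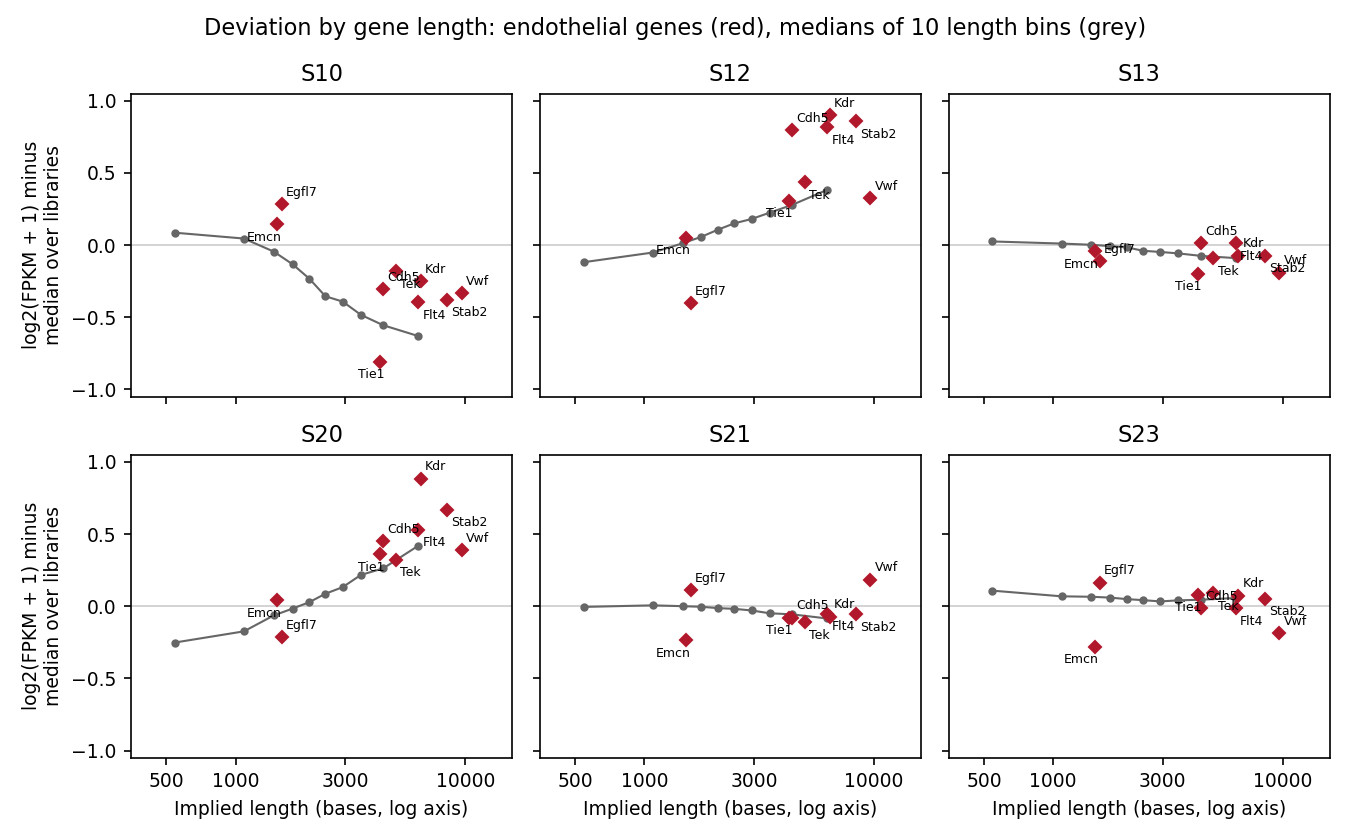
Deviation of each endothelial gene (red diamonds) from its own median over libraries, in log2(FPKM + 1), against implied length in bases (log axis), one panel per library, with the medians of 10 bins of expressed genes in grey. The grey line goes down with length in S10 and up in S12 and S20. In S10 Tie1 stands below it, and every other gene stands above it or above its last point. In S12 Cdh5, Kdr, Flt4 and Stab2 stand furthest above it and Egfl7 furthest below.

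With the median deviation of genes of like length removed from each library, the range of 0 of the 9 genes reached 1, as against 19.8% of all expressed genes. The median range became 0.56 over the 9 and 0.58 over all expressed genes. Cdh5, Flt4, Stab2 and Kdr were still highest in S12, with deviations of 0.37, 0.35, 0.33 and 0.27 from their medians. They were lowest in S23, with -0.19, -0.21, -0.11 and -0.19. S10, their lowest library in the deposited values, then came next below S12, with 0.16, 0.07, 0.18 and 0.21. In S10 the deviation of Tie1 was -0.29, whereas that of Tek was 0.37 and that of Vwf 0.42, so that both Tek and Vwf were then highest in the library in which they had been lowest. Egfl7 had the largest remaining range, 0.78, from S12 to S10.

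The scaling of the libraries changed these ranges too. TMM scaling, which sets libraries to a common level for most genes, shifted the median expressed gene by 0.34 in S10 and by -0.19 in S12. Under it a range of at least 1 was left for 1 gene, Egfl7 (1.24), as against 29.4% of expressed genes, and the ranges of Stab2, Flt4 and Kdr were 0.92, 0.81 and 0.78. The lowest values of Cdh5 and Vwf then lay in S23 and those of Kdr and Tek in S21, while Tie1, Flt4 and Stab2 stayed lowest in S10. The highest library of each of the 7 long genes was S12 or S20 in the deposited values and under TMM, median-ratio and common-sum scaling. Without S10 the range of none reached 1 (13.5% of expressed genes did), and without S12 that of 3 did (33.3%).

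**Figure D3:**
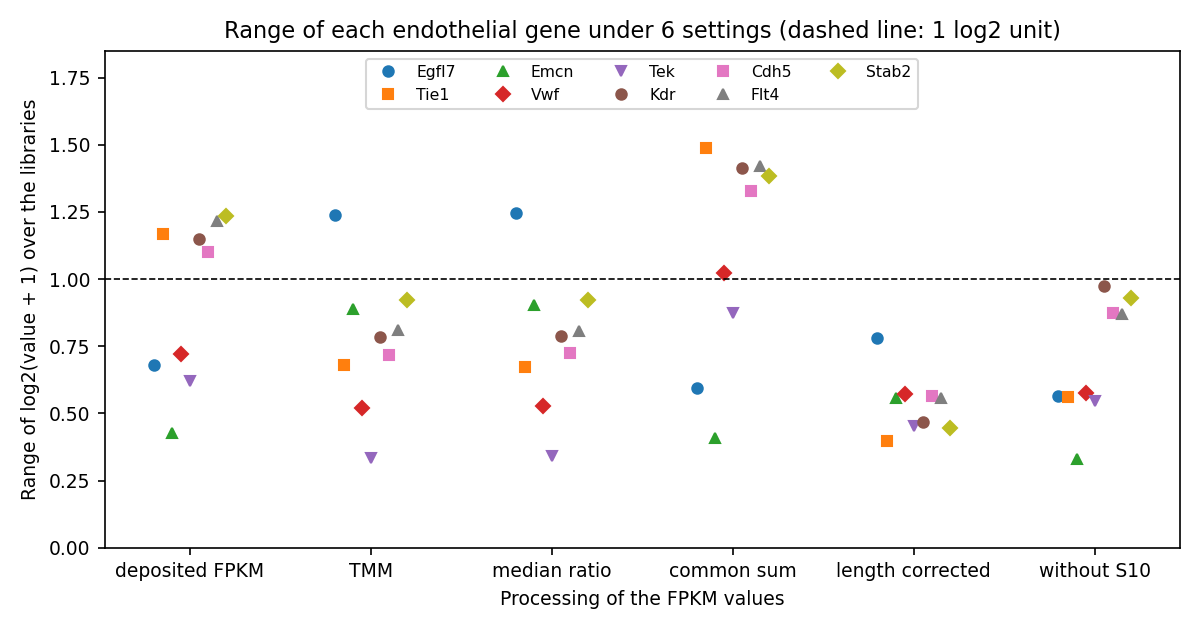
Range over the libraries of log2(value + 1) for 9 endothelial genes (one symbol each) under 6 settings on the horizontal axis, with a dashed line at 1. Stab2, Flt4, Tie1, Kdr and Cdh5 lie above the line in the deposited values and all genes lie below it after correction for length and without S10.

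Ratios of 2 genes within a library do not depend on how the library was scaled. Flt4 was 0.658 (S10) to 0.835 (S20) times as abundant as Cdh5, a range of 0.34 on the log2 scale. Against Flt4, 17 of 11587 expressed genes detected in every library held a steadier ratio than Cdh5 did. Stab2 was 0.443 (S10) to 0.663 (S20) times Flt4, the 29th steadiest ratio of Stab2 to any gene, and the ratio of Flt4 to Kdr, 0.538 (S20) to 0.750 (S13), was the 100th steadiest of Flt4. The Kdr to Cdh5 ratio was 1.01 to 1.19 in 5 libraries and 1.55 in S20. These ranks are descriptions over 6 libraries, and Cdh5, Flt4, Kdr and Stab2 share the class of long transcripts.

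The short genes did not hold their ratio to Cdh5. Egfl7 was 7.66 times Cdh5 in S10 and 1.70 times in S12, a range of 2.17, wider than that between Egfl7 and 80.2% of genes. Emcn was 5.33 times Cdh5 in S10 and 1.84 times in S12. These ratios are not corrected for length, and by the measure of likeness given below the rank of Emcn from Cdh5 went from 6695 to 513 with that correction, and from Kdr from 6892 to 157. Tek and Tie1, receptor and partner, held a like ratio in all libraries but S10: the Tek to Tie1 ratio was 0.595 there and 0.359 to 0.426 elsewhere.

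Vwf held a steady ratio to a megakaryocyte gene in the deposited values. It stood at 0.107 (S23) to 0.131 (S12) times Itga2b, which encodes the integrin chain of platelets, a range of 0.29, while its ratio to Cdh5 went from 1.29 in S12 to 2.48 in S21, a range of 0.95. In a ranking added after this ratio was seen, Itga2b was the 56th steadiest of 11587 genes against Vwf, and Cdh5 the 4795th. Gp5, a platelet glycoprotein gene, was the 185th with a range of 0.37. Other platelet genes were not steady against Vwf: Pf4 had a range of 1.98 and Itgb3 one of 1.74, and 7 of the 13 megakaryocyte and platelet genes lay under the median over genes, 1.06. The ratios and ranks of Vwf are not corrected for length, and its implied length was 2.84 times that of Itga2b. Itga2b had a median of 49.4 FPKM and Pf4 one of 855 FPKM. How much of the Vwf signal came from megakaryocytes was not tested.

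**Figure D4:**
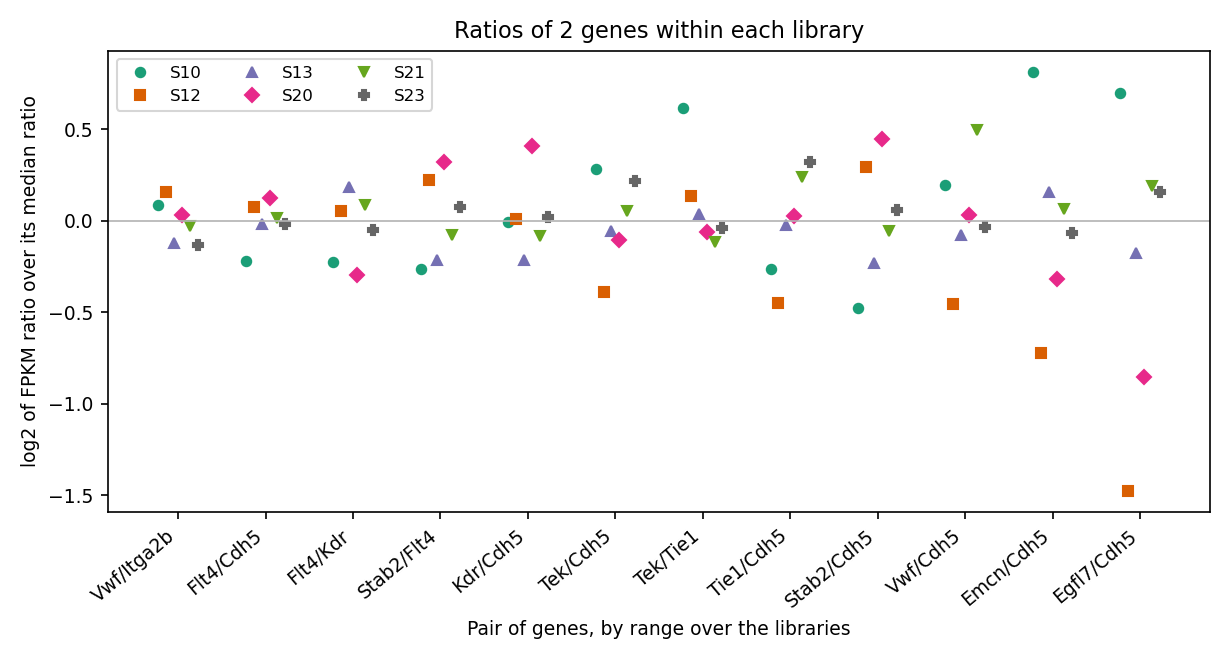
FPKM ratio of 2 genes in each library, as log2 of the ratio over its median (vertical axis), for 12 pairs by range (horizontal axis). Vwf to Itga2b and Flt4 to Cdh5 are the tightest pairs, and Egfl7 to Cdh5 the widest, with S10 high and S12 low.

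Likeness was also taken as the root mean square difference between 2 genes, each set to its own median in log2(FPKM + 1), over the 6 libraries. Cdh5 and Flt4 were each other's nearest among the 11624 other expressed genes, at 0.0520. Stab2 was the second nearest to Flt4 (0.0740), and Flt4 the second nearest to Stab2. Adgrf5, an adhesion receptor gene known from endothelium among other cells, was the third nearest to both Cdh5 and Flt4. Stab2 was the third nearest to Kdr, after Utrn and Ebf3. After correction for length, Cdh5 and Flt4 remained each other's nearest, with Stab2 second to Cdh5, and Kdr ranked 31st to Cdh5. The other likenesses were lower in rank: Stab2 was then the 6th nearest to Flt4, Flt4 the 7th nearest to Stab2, and Stab2 the 14th nearest to Kdr. Adgrf5 was no longer among the nearest 3 of Cdh5 or Flt4.

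The other 5 members had no member among their nearest 3. Without correction for length, among the nearest to Tie1 were Ap3d1 and Uba1, and the nearest to Vwf were Cntrob, Noc2l and Rangap1. Tek was nearest to Dusp4, Tmtc3 and Zfp267. Egfl7 was nearest to Pin4, LOC691807 and Mrpl52, all with implied lengths under those of the long members (508 to 1275 bases). Among the nearest to Emcn were Apoo and Dpm1. After correction for length, none of the genes named here was among the nearest 3 of its member. Each likeness rests on 6 values.

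The ligands and co-receptors of the 2 receptor systems were present too. Of the VEGF ligands, Vegfa had a median of 6.92 FPKM, Vegfc, a ligand of the Flt4 product, 2.85 FPKM, Pgf 2.38 FPKM and Vegfb 1.97 FPKM, and Vegfd had 5 to 12 counts per library. Vegfc ranged from 2.08 FPKM in S10 to 5.55 FPKM in S12, which were also the lowest and the highest library of Flt4. S10 was the lowest library for 60.1% of all expressed genes, and a link between ligand and receptor levels was not tested. The co-receptor genes Nrp1 and Nrp2, expressed by other cells as well, had higher medians than Kdr (9.35 and 6.0 FPKM) and were lowest in S10 and highest in S20. Flt1, the third VEGF receptor, had a median of 0.895 FPKM, from 0.416 FPKM in S10 to 1.80 FPKM in S20. Of the angiopoietins, Angpt1, the activating ligand of the Tek product, had a median of 8.42 FPKM, Angpt2 3.12 FPKM and Angpt4 1.26 FPKM. Angpt1 was lowest in S10 (3.50 FPKM) and highest in S23 (11.3 FPKM). Ptprb, the endothelial phosphatase that acts on this receptor, and Svep1 had medians of 0.368 and 0.188 FPKM.

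Many further genes known from endothelium were detected. The counts of expressed genes in the lists are to be read beside the 11625 expressed among all 22050 annotated genes. Of the 19 junction and surface genes with a row, 16 were expressed, led by Icam2, Ramp2, Plvap and Esam with medians of 21.6, 11.1, 9.88 and 8.97 FPKM. Of these 16, 10 were lowest in S10, near the 60.1% of all expressed genes, and 8 had a range of at least 1, against 36.6%. After correction for length 1 of the 16 had such a range, against 19.8%. Among 15 transcription factor genes 12 were expressed, led by Tal1, Lmo2, Fli1 and Ets1, which blood cells also use, and Etv2 had 0 counts in all 6 libraries. Sox18, which is more restricted to endothelium, had a median of 4.31 FPKM, and Sox17 and Sox7 had 0.480 and 0.162 FPKM.

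Genes of vessel types differed in level. Of the 9 expressed sinusoidal genes, Stab2 included, 7 were lowest in S10, as were 60.1% of all expressed genes. Fcgr2b was lowest in S20 and highest in S23, Vcam1 was lowest in S23, Selp and Icam1 were highest in S23, and Lyve1 was highest in S13. Stab1, chosen after its values were seen, the relative of Stab2, had a median of 1.22 FPKM and the same extremes, 0.557 FPKM in S10 and 2.40 FPKM in S12, and macrophages express it too. For lymphatic vessels, Lyve1 had 2.42 FPKM and Pdpn 1.93 FPKM, but Prox1, the factor that defines lymphatic endothelium, had 7 counts in S13 and 0 in the other 5 libraries, which allows up to 3 counts in each. Flt4 had 336 to 1214 counts in the same libraries. Of 15 arterial and Notch genes 8 were expressed, near the share of all annotated genes (11625 of 22050). The arterial connexins Gja4 and Gja5 had medians of 0.899 and 0.396 FPKM. Ephb4, a vein gene, had 3.91 FPKM. Of the vessel genes that signal to bone, 7 of 10 were expressed, led by Cxcl12, which marrow stromal cells make in quantity, at 142 FPKM, and Esm1 at 20.6 FPKM. Among genes of haemostasis and vessel tone 7 of 11 with a row were expressed, with Tfpi at 15.9 FPKM, Thbd at 8.89 FPKM and Procr at 7.43 FPKM, beside Vwf itself.

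Summed levels of genes known from other cells also differed between these libraries. Summed over the adipocyte list, all 8 of 8 genes with a row, the level was 86.6 FPKM in S23, 448 FPKM in S12 and 99.2 FPKM in S20. Fabp4 alone had 76.8 FPKM of it in S23, 309 FPKM in S12 and 70.8 FPKM in S20. Over the 8 of 9 skeletal muscle genes with a row it was 13.6 FPKM in S20 and 148 FPKM in S12, and over the 12 pericyte and smooth muscle genes 22.4 FPKM in S10 and 43.0 FPKM in S12. The 10 monocyte and macrophage genes summed to 452 FPKM in S20 and 694 FPKM in S12, with Marco at 0 counts in all libraries. The muscle gene Myl1 had 0 counts in S20 and in S23, Mb had 0 in S23, and the adipocyte gene Lep had 0 in S21 and in S23. The marrow lists were far more abundant: erythroid genes summed to 159986 FPKM in S23 and 434676 FPKM in S10, neutrophil genes to 17204 FPKM in S20 and 74221 FPKM in S23, and megakaryocyte genes to 1048 FPKM in S12 and 1740 FPKM in S10. Osteoblast genes summed to 1781 FPKM in S23 and 2488 FPKM in S12, chondrocyte genes to 115 FPKM in S10 and 247 FPKM in S12, and stem and progenitor genes to 28.4 FPKM in S10 and 44.2 FPKM in S20. S12 stood highest for muscle, fat, pericyte, macrophage, osteoblast and chondrocyte sums and S20 lowest for muscle, macrophage and neutrophil sums. These sums are not corrected for length. In the macrophage list C1qa, of 1145 bases implied length, had 225 FPKM in S10, 202 FPKM in S12 and 132 FPKM in S20. Mrc1, of 5718 bases, had 5.37 FPKM in S10, 15.7 FPKM in S12 and 12.9 FPKM in S20. The part of tissue makeup in the endothelial levels was not tested.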

How the data were processed

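Total RNA was made into libraries with a SMARTER kit, per the labels' protocols. The deposited table holds whole, unnormalized counts and, per the file headers, FPKM. For the aligner and counter the labels used here name none. The submitters' processing notes name the mouse builds GRCm38 and mm10 although row IDs are rat Ensembl IDs, so no gene coordinates are given from the files. Of 30610 rows, 10 without values were left out. Members were matched by name. The labels place no library in a group, so values are given per library or as range and median and no test was made. Members and gene lists were chosen with earlier results of these data known.

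Ranges are of log2(FPKM + 1), which understates differences of low genes. Implied length is the median over libraries of counts over FPKM and total counts. Of 197 other genes in 21 lists, 191 had a row. Names were drawn from all members, the highest 4 genes of each list, all VEGF and angiopoietin genes, list genes with a range of at least 2, and the nearest 3 genes of each member, of which some are not reported here. Genes named beyond that rule (Itga2b, Gp5, Gp9, Sox18, Sox17, Sox7, Stab1, Icam1, Gja4, Gja5, Prox1, Cldn5, Etv2, Marco and Lep) were chosen after their values were seen. Alternatives were TMM factors (edgeR 4.0.16), median-ratio factors, common sums with and without globins, a pseudocount of 0.1, other FPKM minimums, and leaving out each library. The correction for length (20 bins) was added after the data were seen. The calculation of ranges was tested on simulated data. Python 3.11.15, scipy 1.17.1 and R 4.3.3 were used.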

Additional observations from a re-analysis of the deposited data

How the results depend on the processing

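All 9 genes kept a median of 1 FPKM under each scaling and with each library left out, and 4 reached 5 FPKM. The number with a range of at least 1 was 5 in the deposited values, against 36.6% of expressed genes (such shares follow in brackets). It was 1 under TMM scaling (29.4%), 1 under median-ratio scaling (29.4%) and 0 after correction for length (19.8%). With a library left out it was 0 without S10 (13.5%), 3 without S12 (33.3%) and 5 without any other one (30.0% to 36.2%). It was 6 with a common sum (51.3%), 5 without globins in the sum (44.5%) and 5 with a pseudocount of 0.1 (48.6%). The highest over the lowest summed FPKM of the 9 genes was 1.41, and 1.78 with a common sum, 1.67 with a common sum without globins, 1.27 under TMM scaling, 1.285 under median-ratio scaling and 1.24 after correction for length. The median level stayed between 1.98 and 2.37 over the alternatives run. Of 192 alternative values of single genes and ratios, 170 moved by less than 1 SD over the libraries and 22 by more. Many of these values could not move, because a range stays the same when a library other than its lowest or highest is left out. Ratios of counts are likewise nearly fixed by the ratios of FPKM. The count of 170 is thus no measure of how stable the values are. No paired analysis was possible because the labels give no groups. A count of 0 allows up to 3 counts in a library.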

Other observations

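Several genes of the related lists differed widely between libraries. Gp1bb, a platelet glycoprotein gene, had 93.0 FPKM in S10, 1.69 FPKM in S12 and 2.13 FPKM in S13, a range of 5.12, while Gp9 of the same receptor complex had a range of 0.52. Adamts13, whose product cleaves von Willebrand factor, had 3 counts in S10 and 6 in S13, against 334 to 821 in each of the other 4 libraries. Cldn5, a tight junction gene of endothelium, had 58 counts in S10, 2 in S20 and 0 in the other 4 libraries, so it did not follow Cdh5, which had 360 counts in S10 and 1063 in S12. Il6st, a co-receptor of interleukin signalling, had 0.654 FPKM in S10 and 6.35 FPKM in S12, a range of 2.15, and the range of Nrp1 was 2.21, with 3.64 FPKM in S10 as the lowest value and 20.5 FPKM in S20 as the highest. Itgb3 and Tubb1, both of platelets, had ranges of 2.48 and 2.24 and the same extreme libraries as Nrp1.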
